A study of Mus musculus with 6 samples.

Results

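Chromatin accessibility around 7 Wnt pathway genes, Wnt6, Wnt10a, Fzd5, Fzd7, Lgr5, Znrf3 and Wif1, was compared between mouse embryonic stem cells and neural progenitor cells by ATAC-seq. Wnt signalling itself and gene expression were not analysed here. The assay uses the Tn5 transposase to cut and tag open DNA, so more fragments are recovered where a site is more accessible. The groups were R1 embryonic stem cells (ESC, labelled R1_mESC) and R1 neural progenitor cells (NPC, labelled R1_NPC), with 3 libraries each and no treatment named in the labels. R1 is an established pluripotent mouse line and is named for both groups, and the labels give neither the age of the cultures nor how the NPC were made. Whether the 3 libraries are separate cultures is not in the labels, and p-values then reflect library-to-library spread that may be technical.

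The authors' deposited table covers 9001 sites of 500 bp that the study lists with high confidence for SP1, a zinc-finger transcription factor of GC-rich DNA. Of these, 59 lay inside a member gene or within 50 kb of either of its ends, by the midpoint of the site, and all 7 genes had at least 7 of them. The genes themselves were picked from Wnt pathway genes with the fold changes of this same table already known. Their fold changes are therefore a description and carry no test of the group. Wnt6 and Wnt10a are neighbours on chromosome 1 and share 8 sites, so 67 gene-to-site links stand for the 59 sites. Each value below is a mean over the libraries or a contrast between the groups. Values of single libraries and their depth were not analysed here. A site near a gene need not act on it.

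Wnt proteins are secreted lipid-modified ligands that bind Frizzled receptors and the co-receptors Lrp5 and Lrp6, which stabilises beta-catenin and switches on genes through TCF and LEF factors. ZNRF3 is a membrane ubiquitin ligase that clears Frizzled receptors from the cell surface, and R-spondins bound to LGR receptors such as LGR5 remove ZNRF3 and so raise the response. WIF1 is a secreted protein that binds Wnt ligands and keeps them from their receptors. Canonical Wnt signalling sustains the self-renewal of mouse ESC, and in the neural tube it patterns the dorsal side and drives progenitor division.

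SP1 binds the GC box, so the promoters that RefSeq gives for the members are shown first. The RefSeq promoters (GRCm38.p6) of 4 of the 7, Fzd5, Fzd7, Wnt6 and Wif1, were matched by symbol, and those of Znrf3, Wnt10a and Lgr5 were not used here. The 250 bases before the annotated start are printed 5′ to 3′ on the strand of the gene, with each GC box (GGGCGG or, on the other strand, CCGCCC) in capitals. They lie at chr1:64737751-64738000 on the minus strand for Fzd5, and on the plus strand at chr1:59481897-59482146 for Fzd7, chr1:74771642-74771891 for Wnt6 and chr10:121033754-121034003 for Wif1.
Fzd5: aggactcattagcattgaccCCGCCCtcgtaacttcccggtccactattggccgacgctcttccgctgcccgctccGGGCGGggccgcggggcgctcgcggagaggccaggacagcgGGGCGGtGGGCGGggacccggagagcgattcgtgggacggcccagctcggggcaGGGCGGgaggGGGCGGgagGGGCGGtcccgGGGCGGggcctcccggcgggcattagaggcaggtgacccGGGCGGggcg
Fzd7: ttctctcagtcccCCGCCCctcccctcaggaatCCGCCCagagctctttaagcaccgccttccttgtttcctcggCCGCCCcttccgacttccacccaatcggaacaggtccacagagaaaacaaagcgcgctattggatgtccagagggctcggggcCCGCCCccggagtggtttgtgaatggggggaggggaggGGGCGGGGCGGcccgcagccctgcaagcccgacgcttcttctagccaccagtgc
Wnt6: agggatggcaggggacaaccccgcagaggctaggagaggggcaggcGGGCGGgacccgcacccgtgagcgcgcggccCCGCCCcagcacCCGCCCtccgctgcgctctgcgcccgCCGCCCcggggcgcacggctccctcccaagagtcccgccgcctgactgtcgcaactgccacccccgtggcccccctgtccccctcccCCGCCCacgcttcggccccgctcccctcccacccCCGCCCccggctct
Wif1: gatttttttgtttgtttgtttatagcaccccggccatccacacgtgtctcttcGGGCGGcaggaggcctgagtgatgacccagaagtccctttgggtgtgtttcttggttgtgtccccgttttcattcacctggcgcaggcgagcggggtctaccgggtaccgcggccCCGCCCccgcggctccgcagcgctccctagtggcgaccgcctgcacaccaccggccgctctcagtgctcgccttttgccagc

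Fzd5 had 9 GC boxes in this window, Fzd7 and Wnt6 had 6 each, and Wif1 had 2. The matches of Fzd7 include an overlapping pair. At least 1 match was found in 42.6% of the 21262 protein-coding promoters of the same length, at least 2 in 22.8% and at least 3 in 11.6%. The window of Fzd5 held 32 CpG dinucleotides, that of Wnt6 28, that of Wif1 21 and that of Fzd7 17, against a median of 10. No TCF/LEF core (CTTTGA or TCAAAG on either strand) occurred in any of the 4, where 12.7% of all promoters had one, which says only that these letters are absent from the window. Listed sites covered the windows of Fzd5 and Fzd7 whole and those of Wnt6 and Wif1 only at an edge.

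Across the 59 sites 16 rose in NPC against ESC, 15 fell and 28 were not called, at the authors' adjusted p below 0.05. Over all 9001 sites the authors' deposited table has 22.8% rising and 32.6% falling, and the members stood at 27.1% and 25.4%. The median log2 fold change of the members was 0.24, with a range from -5.54 to 6.24, beside -0.29 over all sites, as computed from the authors' deposited table. In such bulk libraries a site that is open in fewer cells cannot be told apart from one that is less open in each cell. With fold changes centred on that overall median and p-values recomputed from the fold change and its standard error (SE), there were 17 rises and 9 falls among the members (28.8% and 15.3%), beside 23.1% and 22.8% of all sites. Recomputing without centring gave 13 and 11 (22.0% and 18.6%), beside 18.8% and 26.5% of all sites. The deposited p-values are not those that the deposited fold change and SE give. Recomputed counts therefore stand beside each other and not beside the authors' calls. The pooled median rested on Znrf3, and the 46 sites without it had a median of -0.041, with 9 rises (19.6%) and 15 falls (32.6%).

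**Figure D1:**
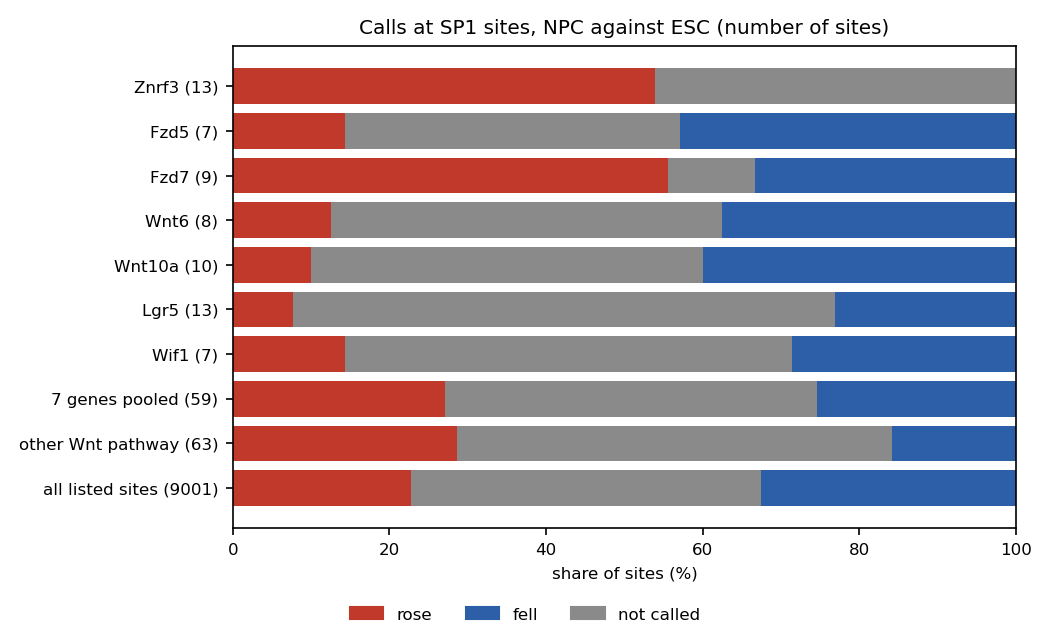
Share of SP1 sites (%) that rose, were not called or fell in NPC against ESC at the authors' adjusted p below 0.05, for each of the 7 genes, the genes pooled, the other Wnt pathway genes and all listed sites, with the number of sites in brackets. Znrf3 has 7 rises and no fall among 13 sites, and Fzd7 is the other gene with more rises (5) than falls (3).

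The genes of the secreted ligands Wnt6 and Wnt10a had 1 rise and 4 falls, a share of falls near the 32.6% of all sites. They lie next to each other on chromosome 1, Wnt6 from 74754342 to 74785322 and Wnt10a from 74792019 to 74804176, and had 10 sites together, 5 of them uncalled. The site with the strongest mean signal, 20.5, lay 20.9 kb past Wnt10a from 74824864 to 74825364. It fell by 2.67 ± 0.45 (log2 fold change ± SE, as in all pairs of values below, or 6.38-fold, adjusted p = 7.28e-08) per the authors' deposited table. Of the other falls, the largest was 47.3 kb past Wnt10a, -3.86 ± 0.91 (adjusted p = 7.45e-05) per the authors' deposited table, and it is nearer to Cdk5r2, an activator of the neuronal kinase CDK5.

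At Wnt6 itself, the site that reaches into the promoter printed above, 0.476 kb upstream of the start that the promoter table gives within the annotated gene body, fell by 1.78 ± 0.81 (adjusted p = 0.0232) per the authors' deposited table. A stronger site 1.39 kb downstream of the start, of mean signal 17.8, had 0.25 ± 0.36 per the authors' deposited table. Inside the gene, 0.697 kb from its higher-numbered end, a site fell by 2.37 ± 0.67 (adjusted p = 9.47e-04) per the authors' deposited table. Sites 8.62 kb upstream of that start and 2.73 kb past the gene had -0.57 ± 0.72 and -0.88 ± 0.64, neither called, per the authors' deposited table.

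Inside Wnt10a a single site, from 74797324 to 74797824, rose by 2.97 ± 0.97 (7.81-fold, adjusted p = 0.00316) per the authors' deposited table. It was the lone rise of the ligand genes, and its interval of 1.96 SE, 1.06 to 4.87, lay above that of the fall at the end of Wnt6, -3.68 to -1.06. A site 4.13 kb past Wnt10a had -0.20 ± 0.35 at a mean signal of 18.0 per the authors' deposited table. The remaining site had 1.25 (interval of 1.96 SE, -2.48 to 4.98) at a mean signal of 1.08, the lowest of the 59, per the authors' deposited table.

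**Figure D2:**
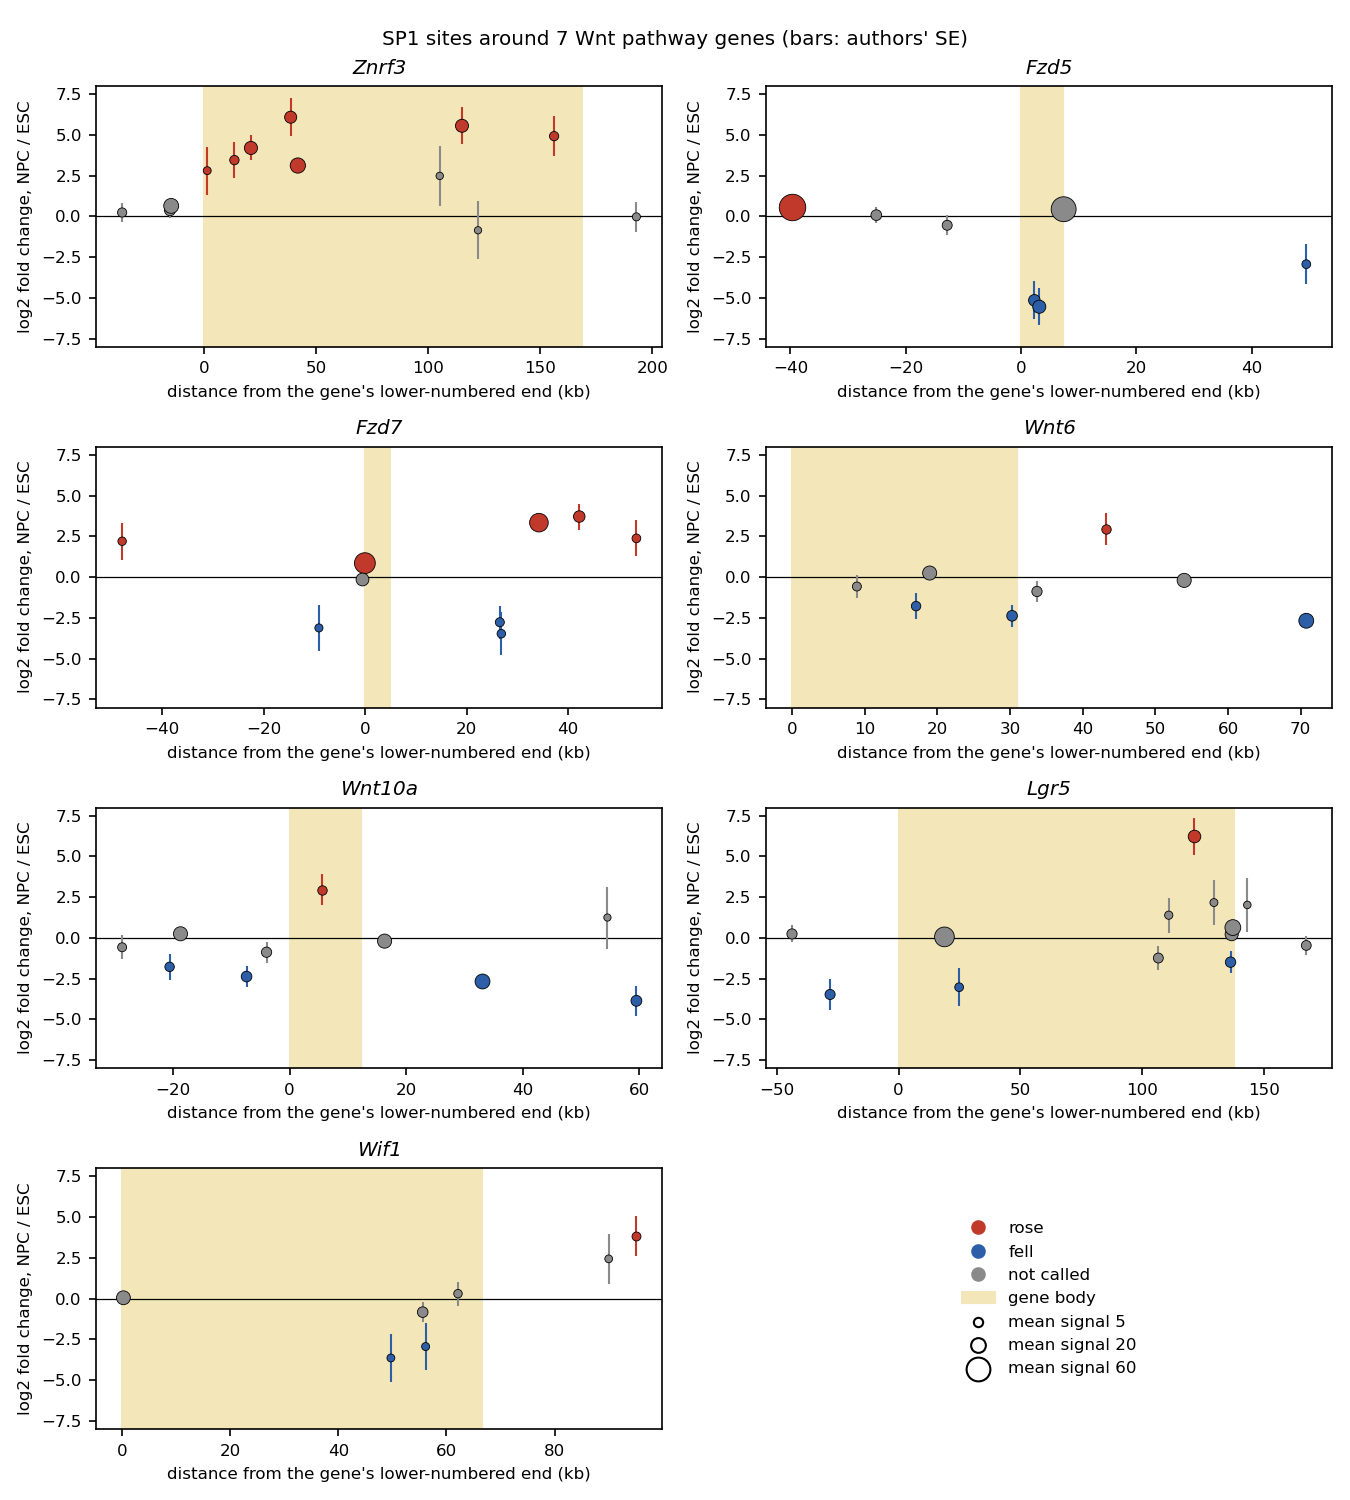
Log2 fold change (NPC over ESC, bars show the authors' SE) of each SP1 site against its distance in kb from the lower-numbered end of the gene, 1 panel a gene, with the gene body shaded, colour for the call and marker area growing with mean signal. Rises at Znrf3 lie inside the gene, 5 of them within 41.9 kb of its lower-numbered end and the others at 115 and 156 kb, the falls inside Fzd5 lie 2.29 and 3.15 kb from its lower-numbered end, and the large markers near 0 are the sites of highest mean signal, such as those at the ends of Fzd5 and Lgr5.

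Of the Frizzled receptor genes, Fzd5 had a pair of falls inside its body and an uncalled site at its start. Fzd5, a receptor of the canonical branch, spans 7.19 kb of chromosome 1 (64730558 to 64737750) and had 7 sites, of which 1 rose and 3 fell. The site over the promoter printed above, from 64737680 to 64738180, had a mean signal of 66.4 and a log2 fold change of 0.44 ± 0.22 per the authors' deposited table. With an adjusted p there of 0.0501, it narrowly missed the threshold. Sites 4.05 and 4.90 kb downstream of the annotated start, both inside the gene, fell by 5.54 ± 1.14 and 5.15 ± 1.15 on the log2 scale (adjusted p = 3.43e-06 and 1.89e-05) per the authors' deposited table. Their intervals of 1.96 SE, -7.78 to -3.30 and -7.41 to -2.88, do not reach that of the promoter site, 0.013 to 0.87. The mean signals of this pair, 14.8 and 10.5, were also lower.

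Around Fzd5 the only rise, 0.56 ± 0.22 at the highest mean signal of all member sites (75.9), lay 0.215 kb from the end of Ccnyl1, a cyclin Y-like gene, per the authors' deposited table. A pair of sites inside Ccnyl1 were uncalled at 0.079 ± 0.47 and -0.54 ± 0.60, and a site 42.3 kb upstream of the Fzd5 start fell by 2.93 ± 1.25 (adjusted p = 0.0149), per the authors' deposited table. That last site is nearer to Plekhm3.

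Fzd7 had changes in both directions. It encodes a Frizzled receptor that is abundant in pluripotent cells, spans 4.81 kb of chromosome 1 (59482147 to 59486955), and had 5 rises and 3 falls among 9 sites. The site over its promoter, from 59481828 to 59482328, rose by 0.86 ± 0.27, or 1.82-fold (adjusted p = 0.00182), at a mean signal of 45.0 per the authors' deposited table. The next site, 0.604 kb upstream of the start, had -0.14 ± 0.36 per the authors' deposited table. Of 112 listed sites with a mean signal within 10% of that of the promoter site, 28 had a higher log2 fold change.

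Larger changes stood away from Fzd7. A site 9.13 kb upstream fell by 3.11 ± 1.41 (adjusted p = 0.0185) per the authors' deposited table. An overlapping pair 26.5 and 26.8 kb downstream of the start fell by 2.77 ± 1.03 and 3.47 ± 1.31 per the authors' deposited table, and these share part of their reads. The smallest adjusted p among all 59 sites belonged to a rise 34.2 kb downstream, from 59516127 to 59516627, with 3.34 ± 0.40 (10.2-fold, adjusted p = 4.19e-14, mean signal 34.9) per the authors' deposited table. That site lies inside Gm973, a predicted gene, 0.113 kb from its end. Further sites inside Gm973 rose by 3.72 ± 0.79 and 2.38 ± 1.10 per the authors' deposited table. A weak site 47.9 kb upstream of Fzd7, of mean signal 3.25, rose 4.60-fold (log2 SE 1.13, adjusted p = 0.0377) per the authors' deposited table, although its interval of 1.96 SE, -0.011 to 4.42, includes 0. So 3 of the 5 rises counted at Fzd7 were inside the next gene.

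Lgr5, the R-spondin receptor known as a Wnt target and a stem cell marker of several epithelia, held the largest single rise of the 59 sites beside 3 falls. The gene spans 137 kb of chromosome 10 (115450314 to 115587780) and had 13 sites, of which 9 were not called. The rise, from 115571238 to 115571738, measured 6.24 ± 1.14 on the log2 scale (75.7-fold, adjusted p = 1.75e-07) at a mean signal of 13.2 per the authors' deposited table. It lies inside both Lgr5 and the overlapping A930009A15Rik, 1.50 kb from the end of the latter. The next sites on either side, with 1.39 ± 1.08 and 2.17 ± 1.39, were not called per the authors' deposited table.

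At the higher-numbered end of Lgr5 stood 3 overlapping sites. From the end inwards their log2 fold changes were 0.63 ± 0.34, 0.23 ± 0.37 and -1.49 ± 0.68, with mean signals of 23.8, 14.9 and 7.53, per the authors' deposited table. Of these the innermost was called a fall (adjusted p = 0.0230 per the authors' deposited table). The site of highest mean signal at Lgr5, 39.8, lay 18.8 kb inside the lower-numbered end and had 0.063 ± 0.25 (adjusted p = 0.822) per the authors' deposited table. A weaker site 24.9 kb inside that end fell by 3.02 ± 1.17, and one inside the neighbouring Zfc3h1 fell by 3.47 ± 0.92 (adjusted p = 4.02e-04), per the authors' deposited table. The other sites of Lgr5, all uncalled, had 0.24 ± 0.52, -1.23 ± 0.73, 2.02 ± 1.65 and -0.46 ± 0.58 per the authors' deposited table.

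Znrf3, which encodes the ligase that removes Frizzled, had rises and no fall. It spans 169 kb of chromosome 11 (5276329 to 5444847), and 7 of its 13 sites rose, none fell and 6 were not called. All 7 rises were inside the gene, where 9 sites had a median log2 fold change of 3.45 per the authors' deposited table. The 4 sites outside it stood between -0.025 and 0.65 and none of them was called.

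The largest rise at Znrf3, from 5314747 to 5315247, measured 6.09 ± 1.15 (SE) on the log2 scale, or 67.9-fold (adjusted p = 3.84e-07), per the authors' deposited table. The next site, from 5317947 to 5318447, had the strongest mean signal of the locus, 21.8 normalized counts, and rose by 3.12 ± 0.47 (adjusted p = 1.95e-09) per the authors' deposited table. These belong to an unbroken run of 5 rising sites over 40.9 kb that starts 1.44 kb inside the lower-numbered end of the gene. The other sites of the run rose by 2.81 ± 1.47, 3.45 ± 1.09 and 4.20 ± 0.77 per the authors' deposited table. The first of these was called at an adjusted p of 0.0353, although its interval of 1.96 SE, -0.068 to 5.68, includes 0.

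Farther inside Znrf3, a site from 5391176 to 5391676 rose by 5.56 ± 1.14 (adjusted p = 2.85e-06) and another from 5432276 to 5432776 by 4.93 ± 1.21 (adjusted p = 7.78e-05) per the authors' deposited table. The 2 uncalled sites inside the gene, 1 before this pair and 1 between its members, had 2.49 ± 1.82 and -0.85 ± 1.77 at mean signals of 1.35 and 1.17 per the authors' deposited table. Their intervals of 1.96 SE, -1.08 to 6.06 and -4.32 to 2.62, include 0. No listed site lay within 1 kb of either end of Znrf3.

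The sites beside Znrf3 gave another picture. At 15.2 and 14.6 kb from its lower-numbered end, a pair of sites lay inside Kremen1, whose protein binds Dickkopf inhibitors and removes the Wnt co-receptor LRP6, at 0.577 and 0.018 kb from that gene's end. Their log2 fold changes were 0.37 ± 0.49 and 0.65 ± 0.38 (adjusted p = 0.417 and 0.0716) per the authors' deposited table. Another Kremen1 site had 0.24 ± 0.61, and a site 24.4 kb beyond the other end of Znrf3 had -0.025 ± 0.90, per the authors' deposited table. The intervals of 1.96 SE around the rises of 4.20 and 6.09 in the run, 2.70 to 5.70 and 3.84 to 8.34, lay above that of the site at the end of Kremen1, -0.094 to 1.39. So did that of the rise of 3.12, while those of the rises of 3.45 (1.32 to 5.59) and 2.81 overlapped it.

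Wif1, the gene of the secreted Wnt inhibitory factor, had an uncalled site at its start and 2 weak falls deeper inside. It spans 66.6 kb of chromosome 10 (121034004 to 121100642). Of its 7 sites 1 rose and 2 fell (14.3% and 28.6%), both shares below the 22.8% and 32.6% of all listed sites. The start site, from 121033991 to 121034491, had a mean signal of 17.1 and a log2 fold change of 0.055 ± 0.33 (adjusted p = 0.877) per the authors' deposited table. Its interval of 1.96 SE, -0.60 to 0.71, leaves out the 2-fold change of log2 size 1 in both directions. Sites 49.7 and 56.2 kb downstream of the start fell by 3.64 ± 1.49 and 2.94 ± 1.43 (adjusted p = 0.00968 and 0.0266) per the authors' deposited table. Both were weak, at mean signals of 2.16 and 2.39. A stronger site in the same stretch, at 8.01, had -0.83 ± 0.61 (not called) per the authors' deposited table. Past the gene, 28.5 kb beyond its end, a site rose by 3.84 ± 1.24 (adjusted p = 0.00214), and one 23.4 kb beyond it had 2.44 ± 1.53 (adjusted p = 0.0690), per the authors' deposited table. The last site, inside the gene, had 0.31 ± 0.74 per the authors' deposited table.

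Among 1488 protein-coding genes of the listed regions with 5 or more sites in reach, 99.2% had a lower median log2 fold change than Znrf3 (2.81) by the authors' deposited table. Only 1 other gene of those 1488 had as many rises with no fall. It is Traf5, named after its values were seen, which encodes an adaptor of tumour necrosis factor receptors, with 9 rises among 14 sites and a median of 0.85 per the authors' deposited table. Only genes with many sites can reach such a count. By share, 38 of the 1488 genes had no fall and 50% or more of their sites risen, Znrf3 among them. The share risen was 53.8% at Znrf3 and 55.6% at Fzd7. Fzd7 had a higher median than 90.6% of the genes, Lgr5 than 70.6% and Wif1 than 61.1%. Fzd5 stood above 34.5%, and Wnt6 and Wnt10a above 30.7%. By share of sites risen, Lgr5 (7.7%) and Wif1 (14.3%) stood lower than by median, above 23.6% and 34.9% of the genes. Both had more falls than rises. Neighbouring genes share sites, so these positions are a description and not a test.

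**Figure D3:**
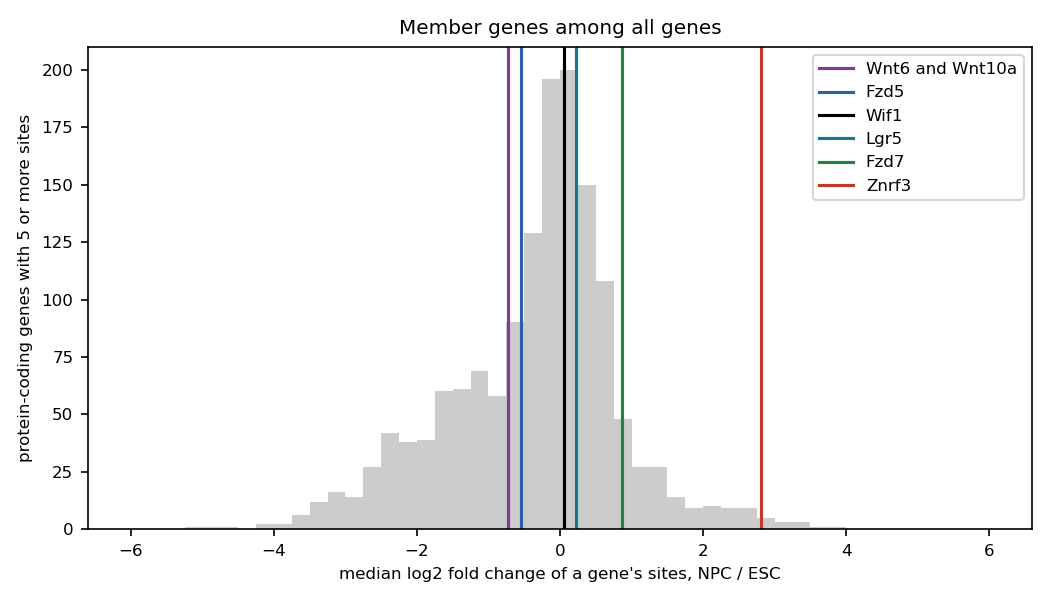
Number of protein-coding genes with 5 or more sites (grey bars) by the median log2 fold change of their sites, NPC over ESC, with coloured lines at the member genes. Znrf3 stands at 2.81 in the upper tail, and the other members fall between -0.73 and 0.86.

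Most member sites at gene ends were not called, and the same held for all listed sites at gene ends. Within 1 kb of an end of a member lay 7 sites, 1 risen (at Fzd7), 1 fallen (at Wnt6) and 5 not called, with log2 fold changes from -2.37 to 0.86. The 2 at Lgr5 overlap each other. The ends are those of the annotated gene body. The fall of 1.78 at 0.476 kb from the Wnt6 start, which lies within that body, is therefore left out. Znrf3 and Wnt10a had no site this close to an end. Of all 1481 listed sites so close to the end of a protein-coding gene, 24.1% rose, 16.1% fell and 886 sites were not called. At a mean signal of 20 or more the members had 9 sites, with 4 rises, 1 fall and 4 uncalled, and of all listed sites this strong, 36.9% rose and 15.6% fell. Below 20, 12 of 50 member sites rose and 14 fell (24.0% and 28.0%), beside 20.9% and 34.9% of all such sites. Of those 9 strong sites, the ones with a log2 size above 1 were the fall past Wnt10a and the rises inside Znrf3 and Gm973.

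**Figure D4:**
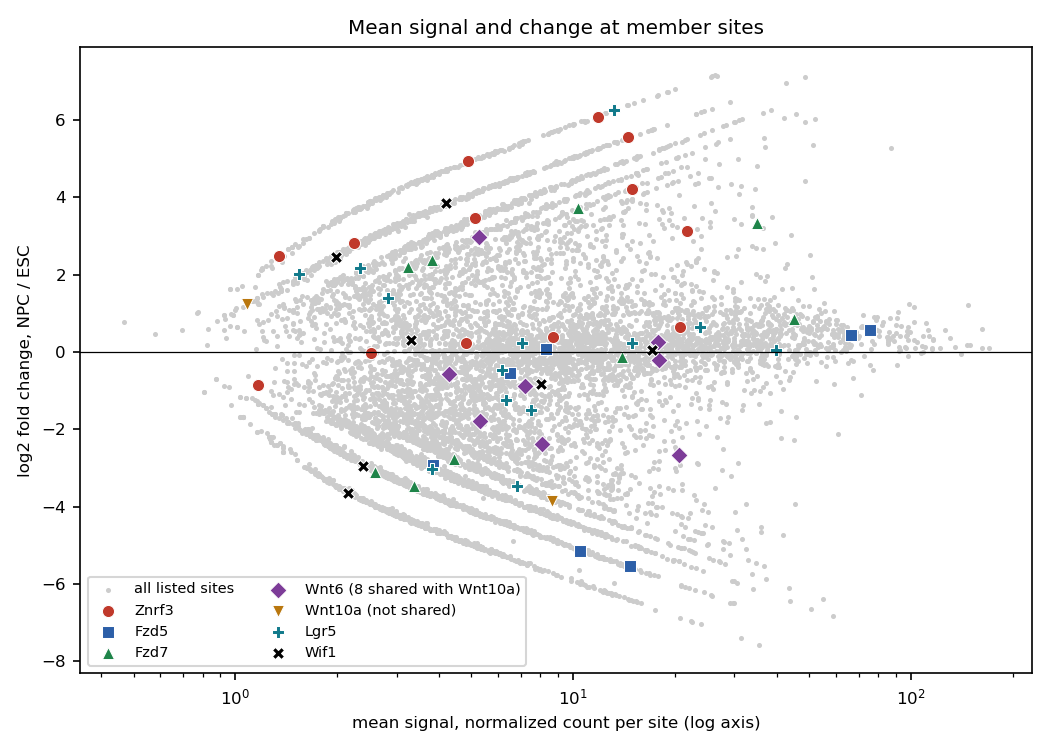
Log2 fold change (NPC over ESC) against mean signal (normalized count, log axis) of all 9001 listed sites in grey and of the 59 member sites by gene. The site inside Lgr5 at 6.24 and that inside Znrf3 at 6.09 lie on the upper edge of the grey cloud. The sites nearest an end of Fzd5, Fzd7, Lgr5 and Wif1 lie between 0.055 and 0.86. Those nearest an end of Wnt6, Wnt10a and Znrf3 lie at -2.37, -0.88 and 2.81.

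Some of these fold changes were near the largest found at their mean signal. Only 2 of 492 sites with a mean signal within 10% of that of the Lgr5 rise had a higher log2 fold change, the highest being 6.38 per the authors' deposited table. For the largest rise inside Znrf3 it was 2 of 561 (highest 6.18), and for the site from 5432276 to 5432776 it was 6 of 797 (highest 5.03), per the authors' deposited table. The deepest fall of Fzd5 was exceeded by 18 of 415 (lowest -6.49 per the authors' deposited table). Among sites within 10% of a mean signal of 1.08, the highest and lowest log2 fold changes were 2.12 and -2.07. Around a mean signal of 13.2 they were 6.38 and -6.35. The reads of each cell type at these sites were not analysed here. Whether such extremes are a limit set by mean signal was not tested.

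Of the 119 other Wnt pathway genes on a list drawn from textbook knowledge, 10 had sites in the listed regions. The list was made with earlier results of these data known. Those 10 genes had 63 sites of their own, with 18 rises, 10 falls and 35 uncalled (28.6% and 15.9%), beside 22.8% and 32.6% of all sites. Their median log2 fold change was 0.17, beside -0.29 over all sites. These 63 sites were also stronger, with a median mean signal of 8.76 beside 5.78 over all sites. Of all listed sites with a mean signal of 20 or more, 15.6% fell. Whether signal bears on the share of falls was not tested. In the R-spondin arm, Rspo3, a ligand of LGR receptors, had 1 rise among 2 sites, of 4.40 ± 1.18 (adjusted p = 3.06e-04) per the authors' deposited table. Lgr6, a relative of Lgr5, had 4 rises and 1 fall among 13, with 5.22 ± 1.19 at its leading site, which is nearest Arl8a, per the authors' deposited table. Kremen1 had 5 rises and 2 falls among 12 sites, but 6 of the 12 are the sites also in reach of Znrf3, its leading site among them.

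Among cytoplasmic members of the pathway, Apc2, a relative of the tumour suppressor Apc, had 3 rises and no fall at 7 sites. The casein kinase gene Csnk1g2 had 5 rises and 1 fall at 11, and Amer3, which encodes an Apc-binding membrane protein, had 1 fall at 3. The leading sites of Apc2 and Csnk1g2 were nearest other genes, Rps15 and Mknk2, at 0.92 ± 0.36 and 1.26 ± 0.26 per the authors' deposited table. Of the Groucho family co-repressor genes, Tle2 and Tle5 each had 1 rise and 2 falls at 8 sites, 7 of which they share. Tle6 had 2 rises and 1 fall at 9, and shares 7 with Tle2 and 6 with Tle5. Vangl2, a gene of planar cell polarity, had 1 rise and 3 falls at 10 sites, with -5.23 ± 1.19 at the leading site, nearest Nhlh1, per the authors' deposited table.

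The 50 kb limit cut across called sites. The farthest Znrf3 site inside it, 36.5 kb out, had 0.24 ± 0.61, and the nearest beyond, 50.7 kb out, fell by 3.70 ± 1.28, per the authors' deposited table. For Fzd7 they were a rise of 2.38 ± 1.10 at 48.6 kb and a fall of 2.78 ± 0.75 at 54.9 kb, and for Wif1 a rise of 3.84 ± 1.24 at 28.5 kb and a fall of 0.97 ± 0.35 at 54.6 kb, per the authors' deposited table. At Fzd5 a fall of 2.93 ± 1.25 at 42.3 kb was followed by a fall of 3.93 ± 1.37 at 56.5 kb per the authors' deposited table. Wnt10a had a fall of 3.86 ± 0.91 at 47.3 kb and 0.060 ± 0.32 at 50.7 kb, and Lgr5 had 0.24 ± 0.52 at 43.7 kb and 2.33 ± 1.31 at 50.2 kb, per the authors' deposited table. The sites on either side of the limit for Wnt6, at 39.8 and 61.2 kb, are both in reach of Wnt10a.

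The labels of the cells were set against marker genes by the same distance rule. Near 7 of 12 ESC markers, 29 of 59 sites fell and 12 rose, and near 3 of 7 NPC markers, 13 of 20 sites rose and 2 fell. These are counts pooled over the genes of each list. They do not show that every ESC or NPC marker gene went the way of its list. Markers of neurons had 12 rises and 8 falls among 26 sites (46.2% and 30.8%, 2 of 3 genes), but the genes went opposite ways. Map2 had 10 rises and 2 falls, and Syt1 had 2 rises and 6 falls. Markers of mesoderm, endoderm and mesenchyme had 1 rise and 11 falls among 17 sites (5.9% and 64.7%, 3 of 5 genes). Fn1 had 7 of these falls and Sox17 had 3, and Mixl1 had 1 rise and 1 fall. The marker genes were listed with earlier results of these data known.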

How the data were processed

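Mean signal (the normalized count averaged over libraries), log2 fold change, SE, p-value and adjusted p-value came from the authors' deposited table of NPC against ESC, whose column names are those of DESeq2 per the file headers. The table's name gave the direction, NPC over ESC. Per the submitters' processing notes, the authors used mm10, BWA 2.1, Picard 2.23.8, MACS2 2.2.7, SAMtools 1.9 and DESeq2. Roles, settings, the DESeq2 version, Tn5 read shifting, shrinkage of fold changes and how SP1 sites were chosen were not given in the sources used here, and any of them could alter counts per site and the balance of rises and falls. The table covers chromosomes 1 and 10 and chromosome 11 up to 20195189.

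Sites were joined to RefSeq genes and promoters (GRCm38.p6, which is mm10) with Python 3.11.15 and pandas 2.3.3. Coordinates are those of the table, which does not state whether they count from 0 or 1. A site was called at the authors' adjusted p below 0.05. Every site of each member gene was printed, and of other pathway genes the site of smallest adjusted p. No test was run on library values, which were not analysed here. As an alternative, p-values were recomputed from the deposited fold change and SE (two-sided normal, Benjamini-Hochberg over all sites), also after centring. The deposited p-values are not those that the deposited fold change and SE give. At the Znrf3 rise of 2.81 ± 1.47, the deposited p-value was 0.0179 although the interval of 1.96 SE includes 0. Recomputed calls, and intervals that include 0 at called sites, carry this mismatch. Its cause was not tested. Intervals are the fold change ± 1.96 SE. Exons, introns and UTRs were not analysed here. The assignment of sites was tested on simulated positions. Members and gene lists were chosen with earlier results of these data known, and alternatives for Znrf3 alone were added after the data were seen.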

Additional observations from a re-analysis of the deposited data

How the results depend on the processing

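With sites taken within 10 kb, 10 member sites rose and 9 fell, and within 100 kb 24 fell. Counting only sites nearest to a member, 10 rose. At the 33 member sites of at least the median mean signal of the table, 9 rose and 7 fell. Without Znrf3, 9 rose and the median turned to -0.041. Centring with recomputed p-values left 9 falls (15.3%, beside 22.8% of all sites). In the other 12 of 16 settings each, member rises and falls stayed within 1.5 times the reported counts, and the median kept its sign in 15 of 16 settings. At Znrf3 the median mean signal filter left 4 rises, and 100 kb added 1 fall and lowered the median to 1.56. The remaining Znrf3 settings gave 6 or 7 rises and no fall. For the other Wnt pathway genes, 7 sites rose and 1 fell within 10 kb, 29 and 22 within 100 kb, and 7 and 1 as nearest gene. Adjusted p below 0.01, and a log2 size above 1, each left 11 rises. The numbers of sites under the changed windows and the nearest gene rule are not given here. Nor are the shares of all listed sites under the mean signal filter and the stricter adjusted p. These counts therefore describe how far the results move with the rule, not a difference from all sites. The causes were not tested. Leaving out single libraries and pairing them by number was not possible because values per library were not analysed here. The low mean signal, a median of 6.81 per member site, limits single sites.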

Other observations

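Across the 59 member sites log2 fold change and mean signal had a Spearman rho of 0.082, and across all 9001 sites 0.11, as a description over sites that share libraries and depth. Called rises at the members had a median log2 size of 3.40 and called falls one of -3.02, beside 3.03 and -3.24 over all sites, as computed from the authors' deposited table. Of the 1488 genes with 5 or more sites, 60 had at least as many rises and at least as many falls as Fzd7 (5 and 3), Fzd7 among them, and 38 had no fall with 50% or more of their sites risen, as Znrf3 did.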
